A study of Drosophila melanogaster with 3 samples.

Results

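Stwl summits at head-to-head promoters were the binding sites of the Drosophila melanogaster protein Stwl (stonewall) that lay at promoters shared by a pair of divergent genes. A peak counted when its summit stood between, or within 500 bp of either of, the transcription start sites (TSSs) of 2 protein-coding genes that point away from each other, with at most 1000 bp between the TSSs. The rule found 2150 of the 7241 summits in the list filtered by the irreproducible discovery rate (IDR), or 29.7%. Chromatin immunoprecipitation and sequencing were done with an anti-GFP antibody on whole embryos aged 0 to 10 h from 1 transgenic line, stably carrying Stwl with GFP at its C-terminus. There was 1 group of 3 biological replicates, with no other genotype, age or treatment to compare, and the promoter that drives the transgene is not given in the labels. Each replicate gave a list of 30000 peaks, and read depth is unknown, so differences were set against the spread between the 3 lists. Signal values are those the authors deposited, on a separate scale in each list.

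Stwl is a nuclear protein with a MADF domain, best known for keeping germline stem cells of the ovary undifferentiated. In a head-to-head pair, genes on opposite strands start from the same stretch of DNA, which therefore acts as the upstream region of both. Many Drosophila genes with general cellular functions stand in such pairs, and their promoters often carry the DRE (bound by Dref), the related site of the insulator protein BEAF-32, or Motif 1 (bound by M1BP) in place of a TATA box.

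The sequences below are 121 bases around summits among the 12 strongest head-to-head summits, read 5′ to 3′ on the plus strand of dm6 from the RefSeq genome, and they show how different strongly bound windows can be. Capitals mark the DRE (TATCGATA), the BEAF-32 core (CGATA, or TATCG on the other strand), Motif 1 (GGTCACAC) and Motif 7 (CANCNCTA), each searched on both strands. A DRE holds a BEAF-32 core on either strand and so counts as 2 of them.
CG32263/PIG-B, chr3L:3811157-3811277: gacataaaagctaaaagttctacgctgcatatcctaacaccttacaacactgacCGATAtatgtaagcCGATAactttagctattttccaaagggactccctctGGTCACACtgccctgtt
KFase/epsilonCOP, chr2L:6488885-6489005: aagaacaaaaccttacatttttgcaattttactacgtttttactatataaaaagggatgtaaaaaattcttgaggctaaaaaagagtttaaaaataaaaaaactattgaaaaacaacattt
Scm/Dh44, chr3R:9637602-9637722: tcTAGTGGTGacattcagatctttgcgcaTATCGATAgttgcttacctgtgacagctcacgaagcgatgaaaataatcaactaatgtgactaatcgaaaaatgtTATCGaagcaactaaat
CG11885/CG13692, chr2L:421455-421575: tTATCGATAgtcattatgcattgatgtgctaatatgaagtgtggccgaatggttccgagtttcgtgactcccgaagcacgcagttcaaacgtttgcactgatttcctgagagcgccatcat
Rrp6/CG33331, chr3R:14886064-14886184: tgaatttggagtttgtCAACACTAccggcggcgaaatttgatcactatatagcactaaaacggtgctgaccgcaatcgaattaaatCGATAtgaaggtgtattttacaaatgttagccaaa
CG10353/SelG, chrX:11887148-11887268: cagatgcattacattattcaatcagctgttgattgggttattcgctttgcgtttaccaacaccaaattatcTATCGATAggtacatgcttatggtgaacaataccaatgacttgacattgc
stwl/CG3919, chr3L:14409470-14409590: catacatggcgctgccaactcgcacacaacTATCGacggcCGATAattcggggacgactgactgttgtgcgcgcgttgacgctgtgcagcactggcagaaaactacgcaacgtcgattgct
stwl/CG3919, chr3L:14410281-14410401: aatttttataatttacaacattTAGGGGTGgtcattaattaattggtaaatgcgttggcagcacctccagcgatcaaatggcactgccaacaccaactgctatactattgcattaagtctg
His2B:CG17949/His2A:CG31618, chr2L:21423609-21423736: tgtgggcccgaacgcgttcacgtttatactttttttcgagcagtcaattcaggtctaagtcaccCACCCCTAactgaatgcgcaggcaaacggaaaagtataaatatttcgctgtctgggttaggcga
The CG32263/PIG-B window held 2 BEAF-32 cores and 1 Motif 1. The Scm/Dh44 window held 1 DRE, 1 further BEAF-32 core and 1 Motif 7, and the CG11885/CG13692 and CG10353/SelG windows held 1 DRE each. The KFase/epsilonCOP window, an AT-rich stretch around the next strongest summit, held none of the 4 motifs. Both windows of the stwl/CG3919 pair are shown. The last sequence is the whole 128 bases between the TSSs of a His2B gene and its divergent His2A partner, where no peak was listed, and it held 1 Motif 7. A match is a description of the letters and not evidence of a site.

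The strongest of the members lay at stwl itself. The stwl TSS stands 687 bp from that of CG3919, and 2 summits of 1 wide peak fell at this pair. The stronger one, at 14409530 on 3L, lay 409 bp inside stwl and had signal values of 1341, 1229.9 and 6340 in replicates 1, 2 and 3, with 8792 in the IDR list. The weaker one, between the TSSs, had 395.6, 717.0 and 1712. The line carries a transgene that expresses tagged stwl. Whether reads here come from it or from the native locus cannot be told apart in the peak lists. The next strongest summit lay 46 bp from the TSS of PIG-B, which encodes a mannosyltransferase that builds GPI anchors, with 1201, 1265 and 4329, and ranked 5, 5 and 6. At KFase/epsilonCOP, a kynurenine formamidase gene beside a COPI coat subunit gene, the values were 857.2, 1148 and 2843, with ranks of 9, 8 and 14. At Scm, a Polycomb group gene divergent from the neuropeptide gene Dh44, they were 707.6, 806.2 and 3252, with ranks of 11, 14 and 10. These 3 pairs and the stronger stwl summit thus ranked 14 or better of 30000 peaks in every replicate.

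The other members of the 12 strongest had IDR signal values from 2554 to 3974. They lay at CG11885/CG13692 (552.2, 688.1 and 2723 in replicates 1, 2 and 3), at CG16787/alpha-Catr, the gene of an alpha-catenin relative (395.3, 663.8 and 2274), and at Rrp6/CG33331, where Rrp6 is an exonuclease of the nuclear exosome (524.6, 578.0 and 2153). CG13392/Rcd4, where Rcd4 is a centriole protein, had 443.9, 440.6 and 2101, and CG10353/SelG, with a selenoprotein gene, had 382.7, 435.6 and 1913. PIG-A/Vps50 had 414.8, 562.6 and 1736; PIG-A acts, as PIG-B does, in GPI anchor synthesis. At hpo, the Hippo kinase gene, divergent from CG15120, the values were 413.5, 373.2 and 1778. All 12 had a match within 150 bp in all 3 replicates, and the lowest rank that any of them took was 85, by hpo in replicate 2.

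**Figure D1:**
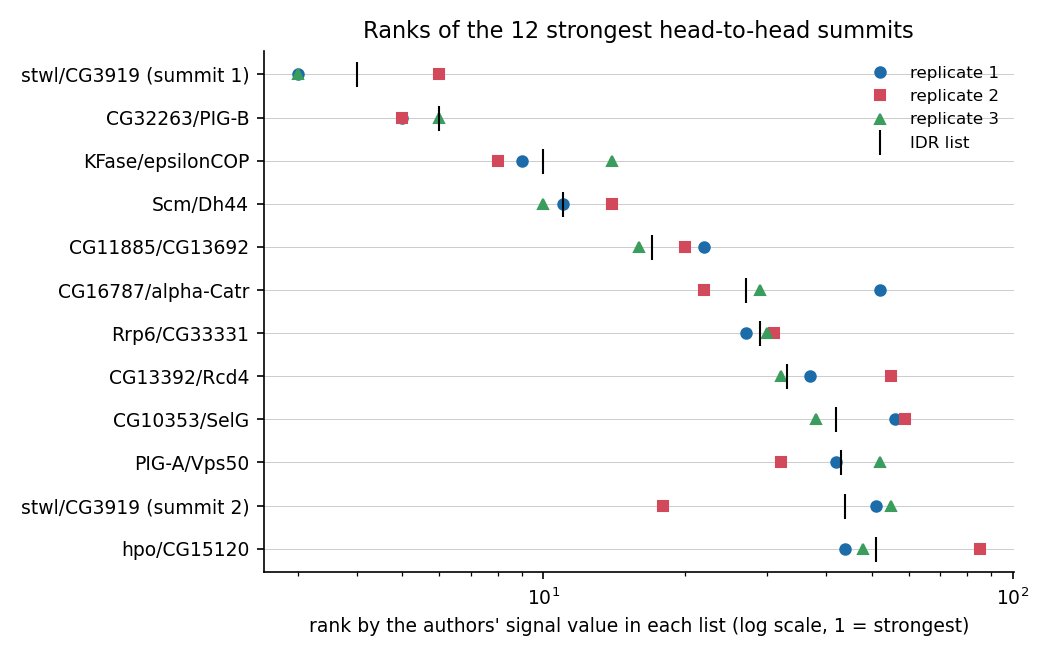
Rank of the 12 strongest head-to-head summits by the authors' signal value (x axis, log scale, 1 is the strongest) in the IDR list (bars) and in each replicate list (points), with pairs named by the minus-strand and then the plus-strand gene. The stronger stwl/CG3919 summit and the CG32263/PIG-B summit kept the first places among these 12, and every point lay at rank 85 or better.

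Of all 2667 divergent pairs of protein-coding genes, 1984 or 74.4% had a summit (95% Wilson interval 72.7 to 76.0). Counted by gene, 3775 of the 5052 genes in such pairs, or 74.7%, had a summit at a pair of theirs. Among 5471 isolated genes, which have no TSS of another protein-coding gene within 2000 bp, 1351 or 24.7% had a summit within 500 bp, but the window around a pair is wider than that around 1 gene. Interval bounds here and below cover counting error only, since sites in 1 embryo collection are not independent replicates. When each replicate was represented by its own 7241 strongest summits, 1965, 1963 and 1974 pairs were bound in replicates 1, 2 and 3, a mean of 73.8% ± 0.220 (SD, n = 3). By these lists 2149 pairs were bound in at least 1 replicate and 1756 in all 3. Of the 1984 pairs with an IDR summit 1743 or 87.9% were bound in all 3, a share among sites already selected as reproducible.

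Most bound pairs held 1 summit (1649), while 324 held 2 and 11 held 3. Some summits of 1 pair lay close together, such as those at 17473308 and 17473508 on 2L at BicD/Sgt. Whether such summits are separate binding sites was not tested. Most members served 1 pair (2006), 133 served 2, and 11 served more. One summit, at the pre-mod(mdg4) genes, fell in 21 pairs. The annotation lists many such genes at the mod(mdg4) locus, which encodes an insulator protein through trans-splicing, and 37 of the 2667 pairs are pairs of them. Without these 37 pairs the share of pairs bound was 74.6%.

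Repeated histone genes formed a block of divergent pairs with no summit. All 42 pairs of 2 histone genes lacked one, and none had a summit in the pooled list or in any replicate list. They stand in the multi-copy histone repeat: 19 of them are His2B/His2A pairs with TSSs 129 bp apart, and the stretch between those TSSs had only 3 distinct sequences. Reads from such copies may not have been placed, so these pairs are uncertain. Without them 1984 of 2625 pairs, or 75.6%, were bound.

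In the IDR list the most closely spaced pairs were bound most often. Of 429 pairs with TSSs up to 100 bp apart, 377 or 87.9% were bound (84.4 to 90.6), and the replicates' own lists gave 84.1% ± 3.66 (SD, n = 3). From over 100 to 200 bp the share was 70.3% of 357 pairs, and 78.7% of 319 pairs once histone pairs were left out. It was 82.7% of 542 pairs from over 200 to 300 bp, 75.6% of 667 pairs from over 300 to 500 bp, and 60.1% of 672 pairs (56.4 to 63.8) from over 500 to 1000 bp, where the replicates gave 60.8% ± 0.374. By the replicates' own lists the closest class had 85.3, 80.0 and 86.9% in replicates 1, 2 and 3. The class from over 200 to 300 bp had 82.1, 81.5 and 83.2%, so replicate 2 did not have the closest class highest. The window of the rule widens with the spacing, so a second score asked for a summit within 250 bp of the pair's midpoint. This gave 84.4% for the closest class and 25.1% for the widest, with 67.8, 81.5 and 73.3% between them. In pairs over 500 bp apart that window holds neither TSS and misses summits near them. The 25.1% is therefore not comparable with the shares of closer pairs. At the limit of the rule, 46 of 93 pairs over 900 to 1000 bp apart were bound (49.5%), and 56 of the 97 pairs over 1000 to 1100 bp apart (57.7%) would have been.

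**Figure D2:**
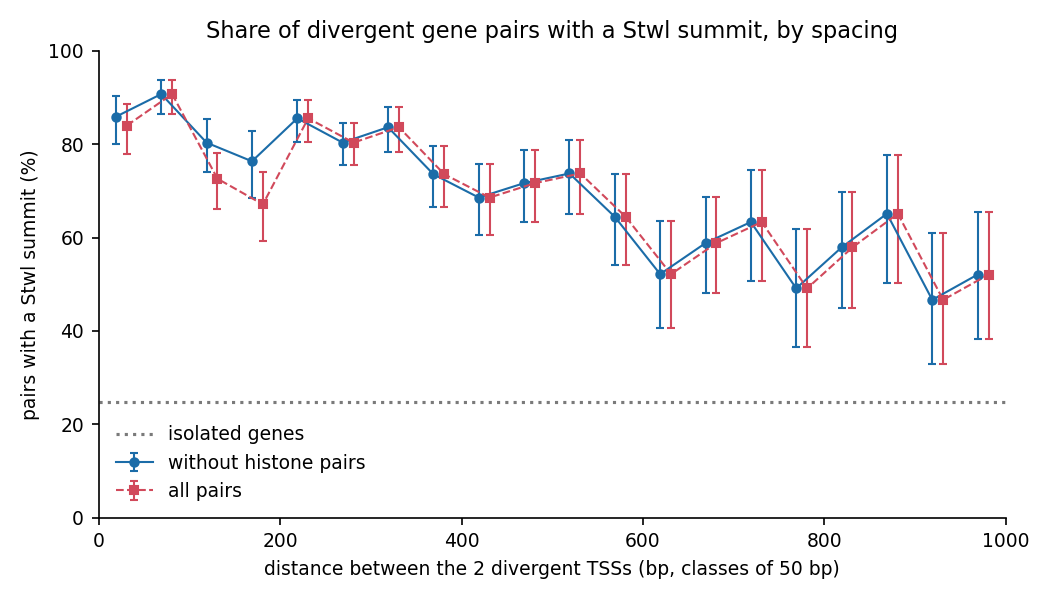
Share of divergent pairs with a Stwl summit (y axis, %) against the distance between the TSSs (x axis, bp, in classes of 50 bp), for all pairs (squares, dashed) and without histone pairs (circles), with 95% Wilson intervals. The dip at 100 to 200 bp is shallower without histone pairs, and every class lies above the 24.7% of isolated genes (dotted).

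Most summits lay between the TSSs, though not in the closest pairs. By the closest TSSs of the pair, 1695 of 2150 summits or 78.8% lay between them, and the replicates' matching summits gave 75.1, 77.6 and 76.3%, a mean of 76.4% ± 1.28 (SD, n = 3). By spacing, it was 50.3% of 380 summits in pairs up to 100 bp apart, then 71.6, 87.6, 90.6 and 82.5% in the wider classes. The interval between the TSSs is also a smaller part of the search window in closer pairs. When a summit could lie between any pair of annotated TSSs that meets the rule, the share over all 2150 summits was 91.6%. The median summit stood 85.75 bp from the midpoint of its pair (replicate mean 85.8 bp ± 5.35) and 64 bp from the nearest of both TSSs. At the outer limit of 500 bp the rule changed little: 22 members lay over 400 to 500 bp outside the closest TSSs, with a median signal value of 392.9, and a limit of 600 bp would have added 24 summits with a median of 366.9.

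Where the summit stood depended on the spacing. Among summits between TSSs over 200 to 300 bp apart, 61.2% of 418 lay in the central 40% of the interval, and the median summit was 86 bp from the nearest TSS. In pairs over 500 to 1000 bp apart, 76.7% of 386 lay in the outer 20% at either end and the median distance to the nearest TSS was 62 bp. In that widest class 81 pairs had 2 summits assigned to them, and in 60 of these each TSS had 1 of the summits nearest to it, at a median of 535 bp from each other. For summits between the TSSs, the median distance to the nearest TSS was 18 bp in pairs up to 100 bp apart. It was 45 bp from over 100 to 200 bp, and 83 bp from over 300 to 500 bp. The spacing itself limits this distance. Over all members of these 3 classes the medians were 25, 46 and 81 bp.

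**Figure D3:**
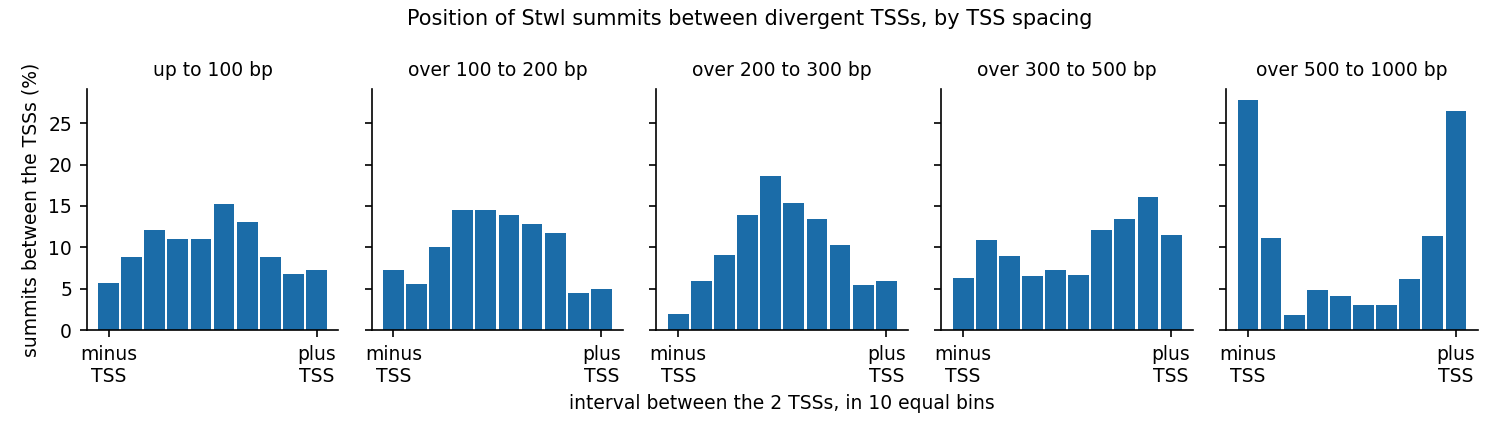
Position of the summits that lay between the TSSs, as the share of summits (y axis, %) in 10 equal bins of the interval from the minus-strand to the plus-strand TSS (x axis), in 5 classes of TSS spacing. A single central mode up to 300 bp gives way to a mode near each TSS over 500 bp, where 76.7% lie in the outer 20% at either end.

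Head-to-head summits were found in the replicates about as often as other IDR summits, which the IDR selects for being reproducible. A peak within 150 bp was listed for 97.1% of the 2150 in replicate 1, 94.0% in replicate 2 and 99.1% in replicate 3, and 1958 or 91.1% had one in all 3. The shares were 96.7, 93.4 and 99.1% for summits at isolated promoters and 95.9, 94.5 and 99.1% for summits over 500 bp from every TSS. Their median signal value in the IDR list was 485.7, against 462.6 at 1524 summits of isolated promoters and 325.1 at 2307 summits over 500 bp from every TSS. In the replicates' own lists the median percentile of head-to-head summits exceeded that of isolated promoter summits by 1.24, 2.29 and 0.222 points, a mean of 1.25 ± 1.03 (0.733 to 1.77 with 1 replicate left out; SD, n = 3; two-sided exact paired permutation test, p = 0.25, the smallest that 3 replicates allow). Over summits away from TSSs the excess was 6.69, 7.97 and 5.72 points (mean 6.80 ± 1.13, exact p = 0.25). The order of members was shared between replicates, with Spearman's rho of 0.756 for replicates 1 and 2, 0.806 for 1 and 3, and 0.707 for 2 and 3. These rank correlations run over 1973, 2070 and 2005 sites that share libraries and are a description.

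The members of close pairs had the higher signal. Median IDR signal values were 552.2, 564.6 and 559.2 in the 3 classes up to 300 bp, then 417.7 from over 300 to 500 bp and 410.6 from over 500 to 1000 bp. In the replicates' lists the median percentile was 91.6 ± 0.146 (SD, n = 3) in the closest class and 88.5 ± 0.805 in the widest, and each replicate had the closest class above the widest. At the other end of the list, the weakest members lay at ATPsyngamma/yata, Ankle2/CG12991 and yki/Gpat4, with IDR signal values of 195.8, 195.2 and 195.0. The weak yki/Gpat4 summit, 1 of 2 at the promoter of the Hippo pathway co-activator gene, had no match in replicate 2, and the other had an IDR signal value of 387.7. ATPsyngamma/yata likewise had a second summit, with 242.7. These 3 pairs were chosen after their values were seen.

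Sequence windows of 100 bp to either side of the summits were searched for 13 promoter and insulator motifs. The BEAF-32 core was found at 1249 of the 2150 summits, or 58.1%, the DRE at 376 or 17.5%, Motif 7 at 443 or 20.6%, Motif 1 at 304 or 14.1%, and the E-box CAGCTG at 374 or 17.4%. In windows of the same length from 150 bp upstream to 50 bp downstream of all 19252 TSS positions of protein-coding genes, the shares were 37.1, 6.79, 11.4, 5.98 and 14.1%. Motif 6 (GTATNTTT) was found at 15.1% of the summits and in 9.71% of the promoters. The remaining motifs were the TATA box (TATAAA; 34.6 and 29.6%), the Initiator (TCAGTT; 10.8 and 21.7%), the GAGA motif (GAGAGAG; 1.12 and 5.79%), and the sites of Pho (GCCATTT; 5.16 and 5.03%), Su(Hw) (TGCATAC; 2.19 and 1.93%), CTCF (AGGNGGC; 5.30 and 5.93%) and Zelda (CAGGTAG; 0.605 and 1.16%). The promoter windows always hold a TSS, whereas the summit windows need not. How far this placement shapes the shares, that of the Initiator included, was not tested. No match to the BEAF-32 core, Motif 1, Motif 6, Motif 7 or the E-box was found at 415 summits, or 19.3%.

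Against summits at isolated promoters, motif shares differed by 8.31 points or less. The BEAF-32 core was at 52.0% of isolated promoter summits, a difference of 6.06 points (95% Newcombe interval 2.80 to 9.31), with 5.79, 3.74 and 5.51 points in the replicates' own summits. Within 50 bp of the summit that difference was 0.696 points, and it was 2.79 to 3.22 points in consensus lists that left out 1 replicate. The TATA box was at 26.2% of isolated promoter summits, 8.31 points lower (5.30 to 11.3), and Motif 7 at 17.7%, 2.89 points lower (0.293 to 5.43). GAGA was at 4.92%, so that head-to-head summits had it less often (difference -3.80 points, -5.06 to -2.69; replicates -3.56, -2.47 and -3.61), and the Initiator at 14.0% (difference -3.20, -5.42 to -1.05). The GAGA difference was -1.46 points without replicate 3 and -2.42 points without replicate 1. The DRE was at 15.9% and differed by 1.54 points with an interval from -0.925 to 3.96, and Motif 1 by -0.493 (-2.83 to 1.79). Both of these intervals include 0, and all intervals here cover counting error only. The DRE difference depended on the window, at -0.271 points within 50 bp of the summit and 5.34 points within 200 bp. With 3 replicates the exact paired permutation test could not go below 0.25, and no motif passed (adjusted exact p of 0.361 or higher over 13 motifs). Windows at head-to-head summits also had a lower median GC content, 36.3% against 37.8% at isolated promoter summits, and its part in the motif differences was not tested.

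The matches to some motifs gathered at the summits. Within 50 bp of a summit there were 263 matches to the DRE, against 61 at 150 to 200 bp, and for the BEAF-32 core 1697 against 564, for Motif 1 187 against 67. The same counts for the TATA box were 464 and 429, and for the Initiator 131 and 138. The short-spaced pairs carried the most E-box matches: 28.7% of the 380 summits in pairs up to 100 bp apart, against 21.2, 16.1 and 12.9% in the next 3 classes. The TATA box letters peaked at 42.8% of summits in pairs over 200 to 300 bp apart, against 27.4% in the closest class. Motif 1 was at 33 of the 376 summits with a DRE, or 8.78% (6.32 to 12.1), and at 15.3% (13.7 to 17.0) of those without one. Median signal values were 537.2 at summits with a DRE and 477.7 at the others. In the replicates' percentiles that difference was 1.44, 0.573 and 1.44 points (exact p = 0.25).

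Bound pairs differed in sequence from pairs without a summit. Here the window was set on the midpoint of the pair, which the peaks did not choose, and histone pairs were left out. The DRE was at 11.1% of 1984 bound midpoints and at 7 of 641 unbound ones, or 1.09% (difference 10.0 points, 8.31 to 11.6; 9.58, 6.97 and 10.1 with pairs called by each replicate). The BEAF-32 core was at 45.4 and 26.1%, Motif 7 at 14.1 and 5.77%, and Motif 1 at 6.80 and 1.40%, while the Initiator was at 11.8% of bound and 18.3% of unbound midpoints. Unbound pairs are wider, so pairs up to 300 bp apart were taken alone: the DRE was then at 17.7% of 1076 bound and 3.33% of 210 unbound midpoints (difference 14.3 points, 10.3 to 17.3), the BEAF-32 core at 58.2 and 33.8%, and the Initiator at 11.5 and 24.3% (difference -12.8 points, -19.2 to -7.08). In the pairs over 300 bp apart, 908 bound and 431 unbound, the differences were smaller: 3.41 points for the DRE (2.08 to 4.81), with no match at any unbound midpoint, 7.90 points for the BEAF-32 core (2.83 to 12.7), 1.54 points for Motif 1 (0.462 to 2.57), 1.99 points for Motif 7 (-0.719 to 4.31) and -3.09 points for the Initiator (-7.29 to 0.760). The last 2 intervals include 0. In these pairs the window, 100 bp to either side of the midpoint, holds neither TSS and misses summits near them. At the summits themselves the DRE was at 17.9% in pairs over 300 to 500 bp apart and 17.5% over 500 to 1000 bp. The midpoint differences of wide pairs are therefore not comparable in size with those of close pairs. Over all spacings, each replicate gave the same direction for these 5 motifs, with an exact p of 0.25 for each, the smallest possible, and 0.295 after adjustment over 13 motifs. The median GC content was 32.3% at bound and 34.3% at unbound midpoints.

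**Figure D4:**
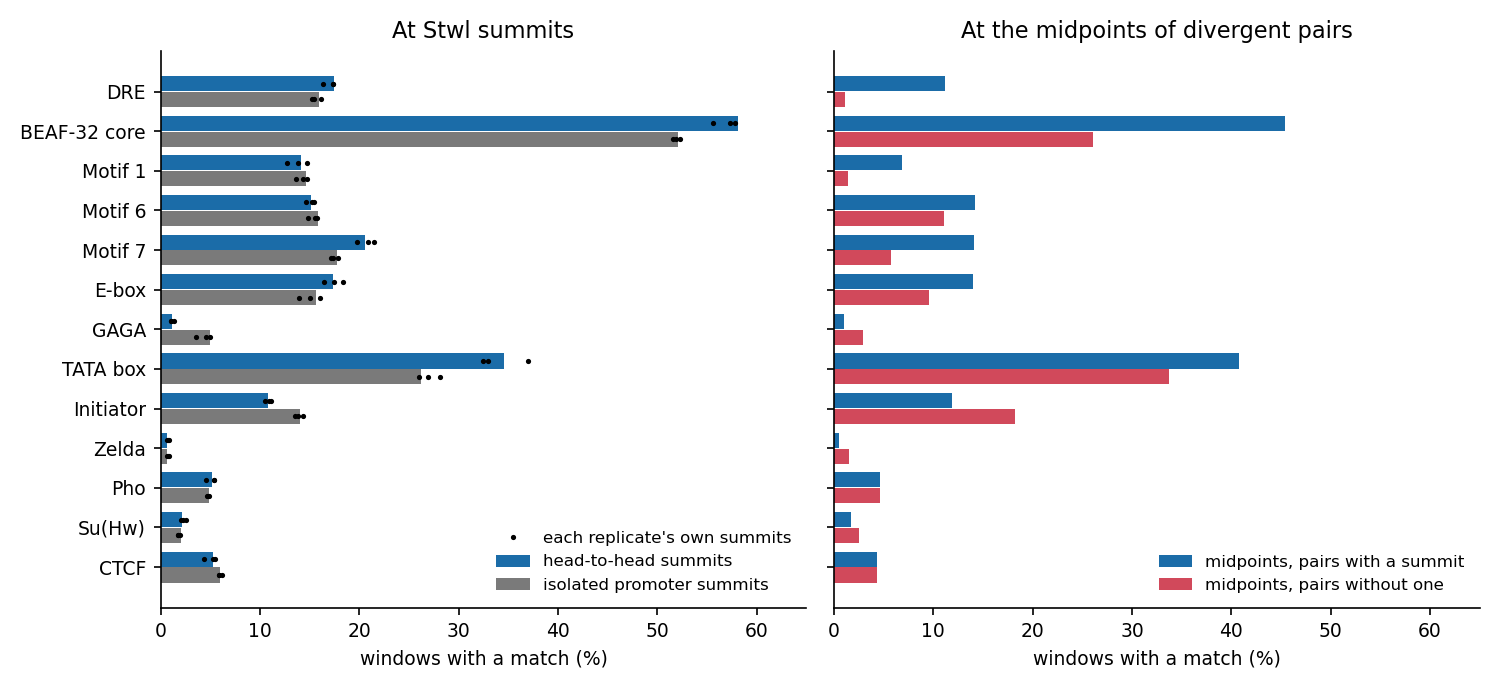
Share of windows with a match (x axis, %) for 13 motifs, at head-to-head and isolated promoter summits (left, with a point for each replicate's own summits) and at the midpoints of divergent pairs with and without a Stwl summit (right, histone pairs left out). At summits the DRE shares are 17.5 and 15.9%, whereas at midpoints they are 11.1% in bound and 1.09% in unbound pairs.

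Genes of general cellular machinery made up the most completely bound pairs. Across 13 lists of such genes, 344 stood in divergent pairs and 308 or 89.5% of these had a summit, beside 74.7% of all genes in pairs, and the lists ran from 71.4 to 100%. Cytoplasmic ribosomal protein genes had 49 of 53 bound, among them RpL14, divergent from the pausing factor gene Nelf-E (signal values 230.0, 317.8 and 1278 in replicates 1, 2 and 3), and RpL7 (259.8, 243.8 and 1149). Mitochondrial ribosomal protein genes had 51 of 58, with mRpS10 beside the methyltransferase gene Art3 in the lead (211.9, 403.1 and 1193). Proteasome genes had 20 of 22, with Rpn6, Rpn9 and Rpn2 of the regulatory particle at IDR values of 1272, 1221 and 1116. Aminoacyl-tRNA synthetase genes had 21 of 23 (LeuRS-m 1329, ValRS 1288, TrpRS 1287), and respiratory chain genes 39 of 43 (COX5B 1192, ND-51 1174, ND-B15 1126). At 299 of the 312 bound pairs with a gene of the 13 lists, the partner gene was in none of them. The same held at 338 of all 351 such pairs, bound or not.

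The lists of nuclear machinery ran from 87.0 to 100%. Mediator genes, whose products link activators to RNA polymerase II, had 18 of 19 bound (MED10 1161, MED9 1103, MED30 1036), basal transcription factor and polymerase genes 20 of 23 (TfIIS 1260.0, Polr2J 1181), splicing factor genes 21 of 23 (Prp3 1017, SmB 985.7), DNA replication genes 20 of 22 (Psf3 1057, Mcm5 826.2) and nuclear pore genes 16 of 18 (Nup37 1221, Nup75 1103). All 12 paired genes of insulator and housekeeping promoter factors were bound (75.8 to 100%), led by lolal, Chro and Cp190 at 1047, 1029 and 862.2, and among them was Dref, the gene of the DRE-binding factor, divergent from RpL13 (131.8, 106.0 and 437.6 in the replicates). Near the 74.7% of all genes in pairs were translation initiation factor genes, with 16 of 21 bound or 76.2% (54.9 to 89.4; eIF2Bbeta 1066), and COPI and COPII coat genes, with 5 of 7 or 71.4% (35.9 to 91.8). Paired genes without a summit included RpL5, RpL7A, eIF3b, Prp8, Orc4 and Taf4, which were chosen as examples after their values were seen. Of the 13 pairs with listed machinery genes on both sides, all 13 were bound (77.2 to 100%). They included RpS27/Nup37 (171.5, 288.5 and 773.7), MED9/Nup75, Lsm10/RpS15Ab and RPA1/Mcm2, of which the last had no match in replicate 2.

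Genes of smell, taste and cuticle were bound less often even where they stood in pairs. Of 26 paired chemoreceptor genes 9 were bound (34.6%, 19.4 to 53.8), of 13 cuticle protein genes 2 (15.4%, 4.33 to 42.2) and of 11 odorant-binding protein genes 2 (18.2%, 5.14 to 47.7), together 13 of 50 or 26.0%. The strongest were Ir60e beside CG13585 (135.3, 132.7 and 558.4 in replicates 1, 2 and 3), Gr63a, which encodes a subunit of the carbon dioxide receptor, beside Lamtor4 (121.4, 76.2 and 453.6), and Or67b beside Cyp40 (65.7, 120.7 and 336.4). The bound cuticle and odorant-binding genes were Cpr60D, Lcp9, Obp93a and Obp47b, at IDR values of 390.7, 372.4, 365.6 and 347.3. Cpr60D counted only through its pair with ND-19, at a spacing of 992 bp. That summit lay 9 bp from the nearest TSS of the closer pair CG30161/ND-19. Of 30 pairs with 1 gene of these lists 14 were bound (46.7%, 30.2 to 63.9), whereas none of the 11 pairs with both genes from them was, Gr59e/Gr59f, Gr58a/Gr58b, Lcp2/Lcp3 and Obp58c/Obp58d included (upper Wilson limit 25.9%). These pairs are also wider, with a median spacing of 499 bp against 277 bp for pairs with a machinery gene. Among pairs up to 300 bp apart, 3 of 10 with a gene of these lists and 181 of 196 with a machinery gene (92.3%) were bound. Over 300 bp the counts were 11 of 31 and 131 of 155 (84.5%). With histone pairs left out, 1659 of the 2234 pairs with no listed gene were bound (74.3%). By spacing these were 892 of 1080 (82.6%) up to 300 bp and 767 of 1154 (66.5%) over 300 bp.

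**Figure D5:**
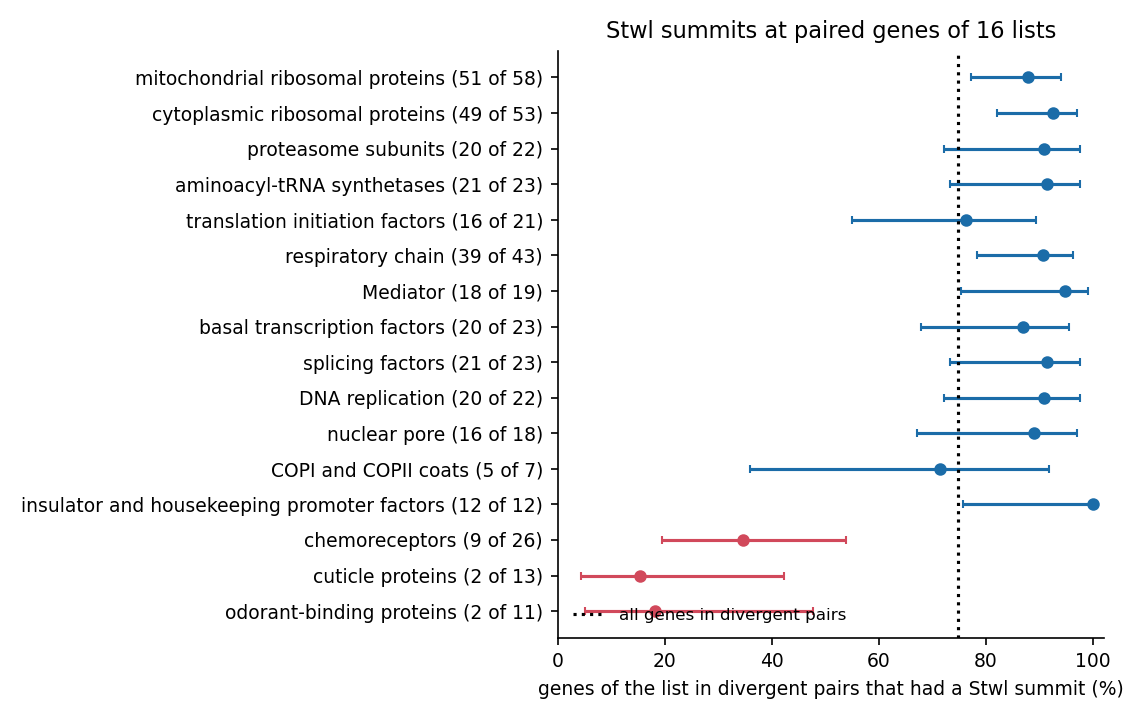
Share of the paired genes of each list that had a Stwl summit (x axis, %, points) with 95% Wilson intervals and the counts beside the names. The 13 machinery lists (blue) lie between 71.4 and 100% and the 3 lists of receptors, cuticle and odorant-binding proteins (red) between 15.4 and 34.6%, with all genes in pairs at 74.7% (dotted).

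By chromosome arm, the share of pairs bound was 69.5% on 2L, 70.5% on 2R, 76.3% on 3L, 78.0% on 3R and 78.2% on X, and it was 4 of 11 on chromosome 4 (36.4%, 15.2 to 64.6). The 42 histone pairs, which lie on 2L, are included.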

How the data were processed

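The authors deposited peak lists in the narrowPeak layout: 1 for each of the 3 replicates, 1 from the pooled reads, and 1 of peaks that pass an IDR threshold, each called against a control library, per the text files deposited with them. Per the labels the genome build is dm6 and chromatin was sonicated to 200 to 800 bp. Per the deposited layout each peak has a signal value and a −log10 q-value or IDR, of which only the signal was used, to rank and describe peaks. No source used here names the caller, the aligner, their versions or the IDR threshold. Lists of 30000 peaks carry no information on the amount of binding through their length.

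TSSs of protein-coding genes on the main arms came from the Ensembl annotation BDGP6.54 (release 115), and sequence from the RefSeq copy of the same assembly, in which every peak end lay within its arm. Position was taken from the closest TSSs of the assigned pair. A summit within 150 bp in a replicate list counted as a match. Named genes are those at the 12 strongest members, up to 3 bound genes of each list by signal, and pairs with listed genes on both sides. The weakest members and the unbound examples of the lists were chosen after their values were seen. Shares have 95% Wilson and differences of shares 95% Newcombe intervals. Replicate differences were tested by two-sided exact paired permutation tests, with motif p-values adjusted by Benjamini-Hochberg over 13 motifs. The scripts were tested on simulated data. Alternatives covered the stronger part of the IDR list, a consensus of the replicates, leaving out each replicate, spacing, margin, match distance, motif window and 1 TSS per gene. The members, lists and motifs were chosen with earlier results of these data known. Python 3.11.15, numpy 2.4.6, pandas 2.3.3 and scipy 1.17.1 were used.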

Additional observations from a re-analysis of the deposited data

Results flagged for a closer look

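Pairs without an IDR summit were not all without peaks in the other lists. Of the 683 such pairs, 231 had a summit in the pooled list of weaker peaks, which the comparisons above do not use. A summit in all 3 replicate lists was found at 146 of them, with 261, 257 and 265 in replicates 1, 2 and 3, and 305 had none in any replicate list. No control list was given to set these counts against.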

How the results depend on the processing

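Of 151 recomputed values, 114 were scored as the same, 34 moved and 3 reversed. Differences were scored by direction, and shares and distances by the spread between replicates. Counts of bound listed genes were scored by a fixed ratio to the reported count. By that ratio 215 machinery genes in the stricter list, against 308 as reported, passed as the same. All 3 reversals were of the DRE difference between head-to-head and isolated promoter summits, which became -0.356 points in the consensus of the 3 replicates, -0.271 with 50 bp to either side of the summit, and -0.0428 without replicate 3 (-0.0428 to 0.500 over the replicates left out). The BEAF-32 core, GAGA and TATA box differences and the percentile difference kept their direction in every alternative run, but not their size. Over the lists that left out 1 replicate, the BEAF-32 core difference was 2.79 to 3.22 points (6.06 as reported), the GAGA difference -2.82 to -1.46 (-3.80) and the percentile difference 0.733 to 1.77 (1.25). With 200 bp to either side, the DRE difference was 5.34 points.

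The stricter part of the IDR list has 3620 peaks and the consensus of the 3 replicates 4903, so fewer pairs can be bound. The share of pairs bound was 51.0% in the stricter part and 62.1% in the consensus, and 65.8 to 68.0% when 1 replicate was left out, a setting built from the 5419 to 5719 strong summits that the remaining replicates have in common. In the same order it was 63.2%, 72.5% and 75.1 to 80.9% for pairs up to 100 bp apart, and 35.7%, 46.1% and 50 to 53.1% for pairs over 500 bp. The median distance from the midpoint was 59.5 bp, 75.25 bp and 74.5 to 80 bp. Bound genes of the receptor, cuticle and odorant-binding lists numbered 3, 8 and 8 to 11, while those of the 13 machinery lists numbered 215, 253 and 268 to 283. The share of summits between the TSSs was 82.4% in the stricter part.

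With TSSs at most 500 bp apart, 79.0% of pairs were bound, the median distance from the midpoint was 59 bp and 8 receptor, cuticle and odorant-binding genes were bound. Within 250 bp of a TSS, 74.0% of pairs and 59.5% of those over 500 bp were bound. With 1 TSS per gene, 80.8% of summits lay between the TSSs and 60.9% of pairs over 500 bp apart were bound. Matching within 100 bp lowered the mean share matched from 96.7 to 94.1%. Among alternatives chosen after seeing the data, leaving out histone pairs gave 75.6% and leaving out pre-mod(mdg4) pairs 74.6% of pairs bound, and leaving out the 21 summits within 50 kb of stwl moved no value beyond the replicate spread.

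No paired analysis was possible because 1 labelled group leaves no second group to pair with, and the paired tests in the report compare kinds of sites within each replicate. Read depth is unknown, so weak sites cannot be told from sites at which few reads were sequenced. With 3 replicates no exact paired permutation test can give a p below 0.25. Which gene of a pair a summit acts on was not tested, and whole embryos mix cell types and ages.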

Other observations

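Motif 7 was at 42 of the 304 member summits with Motif 1, or 13.8% (10.4 to 18.1), and at 21.7% (19.9 to 23.7) of those without it. Motif 1 was likewise at 11.5% (9.87 to 13.4) of summits with the BEAF-32 core and at 17.8% (15.4 to 20.4) of those without. At least 2 matches to the BEAF-32 core, where a DRE counts as 2, were found at 38.1% of member summits, 33.9% of isolated promoter summits and 9.49% of summits away from TSSs, and at least 3 at 19.9, 20.3 and 4.33%.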
